A study of Homo sapiens with 3 samples.

Results

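The ATP-binding cassette (ABC) transporters are described here across 3 human lung cell lines, at the level of their mRNA and of the circular RNAs (circRNAs) made from their genes. Members were all genes of the deposited mRNA table whose symbol is ABC, a subfamily letter from A to G and a number, which gave 45 of 20494 genes, together with all circRNAs whose host gene has such a symbol, which gave 401 of 92509 circRNAs from 34 of the 45 genes. The rule used names only and no measured value. The lines were BEAS-2B, immortalized cells of normal bronchial epithelium, and the lung adenocarcinoma lines A549, which has wild-type EGFR, and HCC827, in which EGFR carries an activating mutation. All 3 lines were grown in DMEM with fetal bovine serum and received no treatment that the sample descriptions name. After removal of ribosomal RNA with RiboZero, 1 library per line was read on an Illumina HiSeq.

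Most ABC transporters are membrane proteins that bind and hydrolyse ATP to move a substrate across a membrane, usually out of the cytoplasm. Several of them export drugs and drug conjugates and are known for making tumor cells, including lung tumor cells, less sensitive to chemotherapy. Others carry cholesterol and phospholipids, metabolites of the mitochondrion or fatty acids of the peroxisome, and the members of subfamilies E and F have no membrane part and act on the ribosome. A circRNA is a closed loop that forms when an exon end is spliced back to its own start or to that of an upstream exon, and it shares its sequence with the mRNA of its host gene except at that junction.

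mRNA levels were FPKM (fragments scaled to transcript length and library size) and circRNA levels were TPM (transcript abundances scaled to a common library total), both as deposited by the authors. Nearly all low FPKM values stood at exactly 1, which is called the floor here and whose origin is not given. With 1 library per line there was no spread between replicates, no test could be run, and a difference between lines is a difference between 2 libraries. Neither unit keeps read counts, so the depth was unknown. The share of all circRNAs above 0 was 46.2% for BEAS-2B, 47.5% for A549 and 5.34% for HCC827, while the totals of the 3 TPM columns were nearly equal, so the values above 0 were higher in HCC827, with a median of 63.4 TPM against 5.17 TPM for BEAS-2B and 4.51 TPM for A549. Among the 5 markers of simple epithelium, 3 were above the floor in BEAS-2B and 5 in each cancer line. The BEAS-2B library had CDH1 and EPCAM at the floor. KRT8 was at 282 FPKM in BEAS-2B, at 1419 FPKM in A549 and lower than in BEAS-2B in HCC827, at 91.6 FPKM. The fibroblast markers COL1A1 (60.6 FPKM) and PDGFRB (12.5 FPKM) were higher in BEAS-2B than in the cancer lines. The other fibroblast markers, COL1A2 and DCN, were at the floor in all 3 lines. The epithelial adhesion genes were thus at the floor in the line labelled normal. Whether these marker differences bear on the ABC differences between BEAS-2B and the cancer lines was not tested. The surfactant genes SFTPB and SFTPC were at the floor in all 3 lines. Of the leukocyte markers, PTPRC, CD3E and MS4A1 were at the floor in all 3 lines, and CD68 was at 4.09 to 29.1 FPKM.

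A similar number of ABC transporter genes was above the floor in each line, 24 for BEAS-2B, 24 for A549 and 25 for HCC827, or 53.3%, 53.3% and 55.6% of the 45. The shares over all genes were 56.4%, 56.6% and 57%. In all 3 lines, 19 members were above the floor, another 5 in 2 lines and 6 in 1 line, and 15 members (33.3%, against 32.7% of all genes) were at the floor throughout. Those 15 were ABCA4, ABCA6, ABCA8, ABCA10, ABCA13, ABCB4, ABCB5, ABCB11, ABCC8, ABCC11, ABCC12, ABCD2, ABCG4, ABCG5 and ABCG8, among them the bile salt exporter ABCB11, the liver and gut sterol exporters ABCG5 and ABCG8, and the retinal transporter ABCA4. Of the 30 genes above the floor in at least 1 line, the highest of the 3 values fell in HCC827 for 13, in A549 for 10 and in BEAS-2B for 7. The same count was not made over all genes, so these numbers have no background. Some of the highest values were near the floor, such as ABCB1 at 1.76 FPKM in HCC827, ABCG1 at 1.46 FPKM in A549 and ABCA9 at 1.24 FPKM in BEAS-2B. In RNA of a whole culture, fewer cells with a transcript and less of it per cell cannot be told apart.

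**Figure D1:**
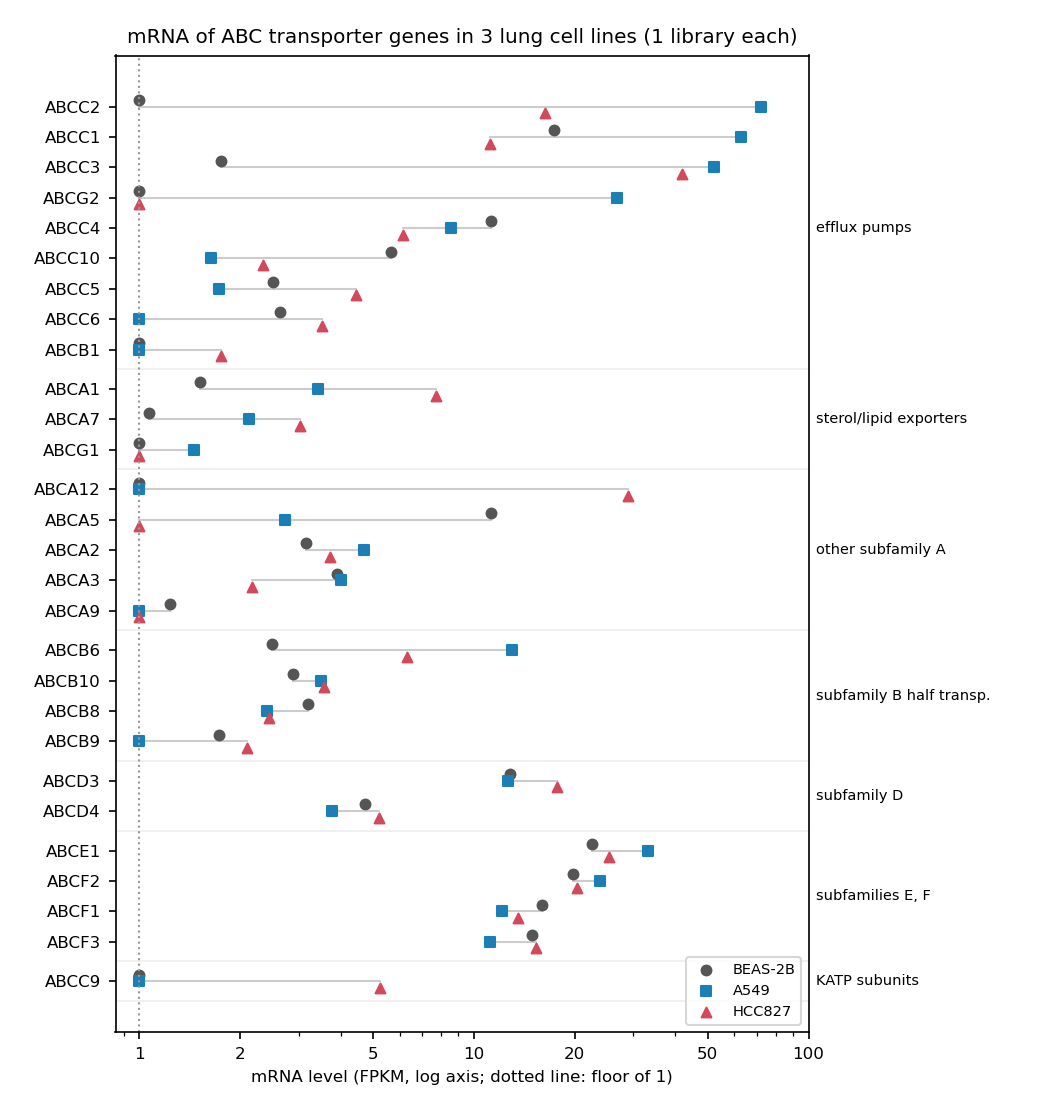
mRNA level in FPKM on a log axis of 28 of the ABC transporter genes above the floor in at least 1 line, ordered by role, with 1 point per cell line (1 library each, no error bars) and a gray bar from the lowest to the highest value. ABCC2, ABCC3 and ABCG2 spread the most among the efflux pumps, while the 4 genes of subfamilies E and F kept all 3 values between 11.2 and 33.1 FPKM.

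The comparison of A549 with BEAS-2B asks how the cancer line with wild-type EGFR differs from the normal line. Genes above the floor in at least 1 line of a pair were compared by the difference in log2(FPKM + 1), which understates the change of low genes, and a difference counted from 2-fold. Of 27 members compared, 5 were higher in A549, which is 18.5% against 10.5% of all 12952 genes compared, and 3 were lower, which is 11.1% against 15.3% of all genes. The members' median difference was 0.03 on the log2 scale, against -0.16 over all genes. Most members thus lay within 2-fold, and the 5 that were higher were ABCC1, ABCC2, ABCC3, ABCG2 and ABCB6.

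In HCC827 against BEAS-2B, 6 of 28 members were higher, which is 21.4% against 12.9% of all 13138 genes compared, and 2 were lower, which is 7.14% against 16.6%. The median difference of the members was 0.18 against -0.14 over all genes. The 6 were ABCC2, ABCC3, ABCB6, ABCA1, ABCA12 and ABCC9, and ABCA5 was among the 2. Both comparisons use the same BEAS-2B library, so agreement between them is not independent. In HCC827 against A549, 3 of 29 members were higher, which is 10.3% against 13.8% of all 13100 genes, and 3 were lower, again 10.3%, against 12.4%. The higher ones were ABCA12, ABCC9 and ABCC6, the lower ones ABCC1, ABCC2 and ABCG2, and the medians were 0.03 for the members and 0.02 for all genes.

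**Figure D2:**
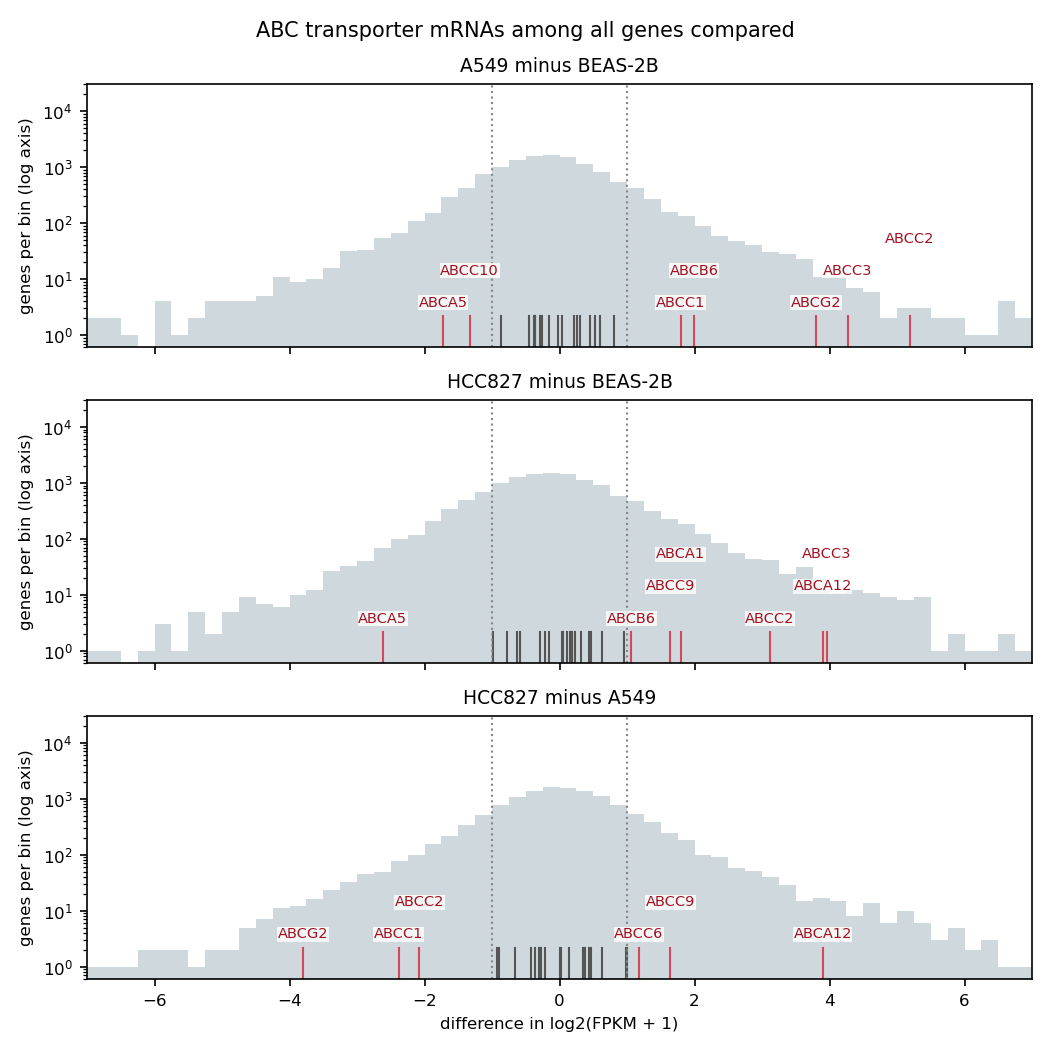
Differences in log2(FPKM + 1) between the libraries of each pair of lines, with all genes compared as a gray histogram (number of genes per bin on a log axis, shown from -7 to 7) and the ABC transporter genes reported here as ticks, red and named where the difference reached 2-fold (dotted lines). Most ticks lie between the dotted lines, and the farthest are ABCC2 at 5.19 in A549 against BEAS-2B, ABCC3 at 3.96 in HCC827 against BEAS-2B, and ABCA12 at 3.90 and ABCG2 at -3.80 in HCC827 against A549.

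The efflux pumps of drugs and conjugates held the largest ABC differences of A549 from BEAS-2B. Of their 11 genes, 9 were above the floor in a line, and their levels above the floor summed to 41.2 FPKM in BEAS-2B against 226 FPKM for A549 and 87.7 FPKM for HCC827. ABCC2 (MRP2), which in liver and kidney exports glutathione and glucuronide conjugates at the apical membrane, was at the floor in BEAS-2B, at 72.2 FPKM in A549 and at 16.4 FPKM in HCC827. It was the highest ABC mRNA of A549, its log2(FPKM + 1) differences from BEAS-2B were 5.19 for A549 and 3.12 for HCC827, and the former was the 18th highest of the 12952 genes compared. Between the cancer lines, ABCC2 in HCC827 was 0.227 times its level in A549.

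ABCC3 (MRP3), which exports the same kinds of conjugates across the basolateral membrane, was at 1.76 FPKM in BEAS-2B, with 52.2 FPKM for A549 and 41.9 FPKM for HCC827. Its FPKM was 29.7 times higher in A549 and 23.9 times higher in HCC827 than in BEAS-2B, on a low BEAS-2B value, with log2(FPKM + 1) differences of 4.27 and 3.96. It was the highest ABC mRNA of HCC827, and both cancer lines were high, with a difference of -0.31 between them. ABCC1 (MRP1), an exporter of glutathione conjugates and leukotriene C4 that many cell types carry, was at 17.3 (BEAS-2B), 62.6 (A549) and 11.2 FPKM (HCC827). A549 alone was high, 3.61 times BEAS-2B and 1.80 on the log2(FPKM + 1) scale, and HCC827 differed from BEAS-2B by -0.59 and from A549 by -2.39.

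ABCG2 (BCRP), an exporter of urate and of many anticancer drugs, was at the floor in BEAS-2B and in HCC827 and at 26.8 FPKM in A549. The log2(FPKM + 1) difference of A549 from BEAS-2B was 3.80, the 54th highest of all genes compared, and that of HCC827 from A549 was -3.80, the 53rd lowest of 13100. ABCG2 was thus listed above the floor in 1 of the 3 lines only. ABCC10 (MRP7), which exports taxanes, had its highest level in BEAS-2B, at 5.65 FPKM against 1.64 FPKM in A549 and 2.35 FPKM in HCC827, with differences of -1.33 and -0.99 on the log2(FPKM + 1) scale. ABCC6, whose loss causes the mineralization disease pseudoxanthoma elasticum, was at 2.64 FPKM in BEAS-2B, at the floor in A549 and at 3.53 FPKM in HCC827, which is a difference of 1.18 between the cancer lines. Reads of ABCC6 may be split with 2 pseudogenes, so its low values are uncertain.

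The other efflux pumps did not reach a 2-fold difference of FPKM + 1 in any pair. ABCB1 (P-glycoprotein, or MDR1), the best known drug pump of the family, was at the floor except in HCC827, at 1.76 FPKM. ABCC4 was at 11.3, 8.55 and 6.15 FPKM and ABCC5 at 2.52, 1.73 and 4.45 FPKM in BEAS-2B, A549 and HCC827, and both export cyclic nucleotides. In A549 against BEAS-2B, 4 of 8 efflux pumps compared were higher and 1 was lower, with a median of 0.72, and in HCC827 against BEAS-2B 2 of 8 were higher and 0 were lower, with a median of 0.39. In HCC827 against A549, 1 of 9 was higher and 3 were lower, with a median of -0.31. The shares of all genes to set beside these counts, and beside those of the lists that follow, were 10.5% higher and 15.3% lower in the first pair, 12.9% and 16.6% in the second and 13.8% and 12.4% in the third.

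The promoters of the genes that were higher in A549 are shown because these genes moved together there and because efflux pumps are known targets of NFE2L2 (NRF2), which binds the antioxidant response element with the core TGACNNNGC. RefSeq windows of 300 bases, from 250 bases before to 50 bases after a transcription start on GRCh38.p14, were matched by symbol for 35 of the 45 members, with 53 windows. ABCC1 and ABCC3 had no window, ABCG2 had 5, of which the window with a match is given, and ABCC2 and ABCB6 (a porphyrin transporter described further on) had 1 each. Capitals mark TGACNNNGC on either strand.
ABCB6 chr2:219218909-219219208 (minus strand): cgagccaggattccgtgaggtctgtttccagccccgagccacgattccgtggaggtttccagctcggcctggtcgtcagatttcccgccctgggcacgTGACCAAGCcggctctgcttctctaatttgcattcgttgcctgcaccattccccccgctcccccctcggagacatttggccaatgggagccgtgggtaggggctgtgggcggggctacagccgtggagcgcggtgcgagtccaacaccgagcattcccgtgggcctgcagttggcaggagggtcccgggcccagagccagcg
ABCG2 chr4:88159241-88159540 (minus strand): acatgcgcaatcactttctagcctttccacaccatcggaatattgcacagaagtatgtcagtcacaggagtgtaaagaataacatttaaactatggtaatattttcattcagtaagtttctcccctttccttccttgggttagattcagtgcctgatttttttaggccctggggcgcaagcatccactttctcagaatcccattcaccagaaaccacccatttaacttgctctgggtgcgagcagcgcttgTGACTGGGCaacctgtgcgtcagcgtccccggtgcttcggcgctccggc
ABCC2 chr10:99782390-99782689 (plus strand): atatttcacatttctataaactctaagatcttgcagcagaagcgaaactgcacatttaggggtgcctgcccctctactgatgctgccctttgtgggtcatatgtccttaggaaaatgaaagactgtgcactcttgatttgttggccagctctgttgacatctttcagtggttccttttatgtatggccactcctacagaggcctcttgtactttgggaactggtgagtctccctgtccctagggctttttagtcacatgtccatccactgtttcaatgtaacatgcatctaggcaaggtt
The ABCB6 match began 152 bases before the start, next to and overlapping a CACGTG, and the ABCG2 match lay at the start itself. TGACNNNGC was in 12 of the 53 member windows (22.6%) against 13.3% of all 35116 windows. CACGTG, the E-box, was in 9 (17%) against 7.26%, and GGGCGG, the GC box, was in 25 (47.2%) against 45%. Windows of 1 gene can overlap, so 1 site can count in more than 1 window, as the CACGTG of ABCG2 did. A match describes the letters only, and these shares were not tested. TGACNNNGC was also found in windows of ABCA5 and ABCC10, which were lower in A549 than in BEAS-2B (-1.72 and -1.33). The other members with a match, ABCA2, ABCA3, ABCB9, ABCC4, ABCC11, ABCD4, ABCF1 and ABCG4, did not reach 2-fold in A549 against BEAS-2B. The ABCC2 window had no match. Whether a match goes with the direction of a difference was not tested.

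Genes that supply or accompany the efflux pumps were counted from lists chosen by function, with earlier results of these data known. In the list of regulators, which has NFE2L2, its inhibitor KEAP1 and the xenobiotic receptors, 8 of 11 genes were above the floor. None of the 8 reached a 2-fold difference between A549 and BEAS-2B, and 1 was higher (HIF1A) and 1 lower in HCC827 than in BEAS-2B. NFE2L2 mRNA was at 36.5 FPKM in BEAS-2B against 27.8 FPKM for A549 and 37.6 FPKM for HCC827, and KEAP1 mRNA was at 13, 9.73 and 10.5 FPKM. The genes of glutathione supply, which furnish the conjugate that the MRP pumps export, had 4 of 9 higher and 1 lower in A549 than in BEAS-2B, and 3 of 8 higher and 2 lower in HCC827.

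GCLC, the catalytic subunit of the rate-limiting enzyme of glutathione synthesis, was at 8.51 FPKM in BEAS-2B, with 113 FPKM for A549 and 15.4 FPKM for HCC827. GSR, glutathione reductase, was at 9.80, 98.1 and 22.5 FPKM in the same order. Both were highest in A549, with log2(FPKM + 1) differences from BEAS-2B of 3.58 and 3.2. ABCC1, ABCC2, ABCC3 and ABCG2 were also highest in A549, and a link between these genes was not tested. In the list of uptake carriers of organic anions and cations, 4 of 9 were higher and 0 were lower in A549 than in BEAS-2B. In HCC827 against BEAS-2B, 4 of 8 were higher and 2 lower. The list also holds efflux proteins, and SLC47A1 was among the 4 higher in A549. The cation carrier SLC22A3 was at the floor in BEAS-2B, at 28.9 FPKM in A549 and at 3.71 FPKM in HCC827, and the organic anion carrier SLCO4A1 was at 45.7 FPKM in HCC827 and at the floor in the other lines. SLCO1B3, an anion carrier of the liver, was at the floor in BEAS-2B, at 13 FPKM in A549 and at 9.64 FPKM in HCC827. The efflux protein SLC47A1 was above the floor in A549 only, at 13.8 FPKM, and the prostaglandin carrier SLCO2A1 in HCC827 only, at 7.28 FPKM.

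Among the exporters of sterols and phospholipids, 3 of 8 genes were above the floor in a line, and their levels above the floor summed to 2.59 (BEAS-2B), 7.0 (A549) and 10.8 FPKM (HCC827). ABCA1, which loads cholesterol and phospholipid onto apolipoprotein A-I, was at 1.52 FPKM in BEAS-2B against 3.42 FPKM for A549 and 7.73 FPKM for HCC827. The difference in log2(FPKM + 1) from BEAS-2B was 1.79 for HCC827 and 0.81 for A549, and without the added 1 FPKM the difference for A549 was 1.17, so that the call in A549 depends on it. ABCA7, a close relative with a role in phagocytosis, was at 1.07, 2.13 and 3.02 FPKM in BEAS-2B, A549 and HCC827, and ABCG1, which passes cholesterol to lipoproteins, was above the floor in A549 only, at 1.46 FPKM. The list of cholesterol efflux partners, with the LXR receptors and the apolipoproteins, had 0 of 8 higher and 2 lower in A549 and none past 2-fold in either direction in HCC827, both against BEAS-2B.

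The other transporters of subfamily A differed most in HCC827. ABCA12, which in the skin carries glucosylceramide into lamellar granules, was at 28.8 FPKM in HCC827 and at the floor in the other lines, a log2(FPKM + 1) difference of 3.90 from each. It ranked 79th of 13138 genes against BEAS-2B and 82nd of 13100 against A549. ABCA3, the transporter that alveolar type II cells use to load surfactant lipid into lamellar bodies, was at 3.89 FPKM in BEAS-2B, with 4.0 FPKM for A549 and 2.18 FPKM for HCC827 and reached 2-fold in no pair. In the list of lamellar body and surfactant genes, the 5 surfactant protein genes were at the floor in all lines, while the protease gene NAPSA was at 34.5 FPKM and the lung transcription factor NKX2-1 at 9.92 FPKM in HCC827. In BEAS-2B and A549 NKX2-1 was at the floor and NAPSA at the floor and at 1.14 FPKM.

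ABCA5, a lysosomal transporter linked to cholesterol handling, was highest in BEAS-2B, at 11.3 FPKM, and was at 2.72 FPKM in A549 and at the floor in HCC827. Its log2(FPKM + 1) differences from BEAS-2B were -1.72 and -2.62, and the latter was the 198th lowest of 13138. ABCA5 lies on chromosome 17 beside ABCA10, ABCA6, ABCA9 and ABCA8, which follow each other in the reference gene table. ABCA10, ABCA6 and ABCA8 were at the floor in all lines and ABCA9 was above it in BEAS-2B only, at 1.24 FPKM. ABCA2, a lysosomal transporter of the nervous system, was at 3.16, 4.69 and 3.71 FPKM in BEAS-2B, A549 and HCC827.

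In subfamily B, the 5 genes of mitochondrial and lysosomal transporters that work as dimers were above the floor in every line except ABCB9 in A549, with summed levels of 17.4, 27.7 and 28.9 FPKM in BEAS-2B, A549 and HCC827. ABCB6, which carries porphyrins and whose promoter is given above, was at 2.5 (BEAS-2B), 13 (A549) and 6.33 FPKM (HCC827). It was 5.18 times higher in A549 and 2.53 times higher in HCC827 than in BEAS-2B, or 2.0 and 1.07 on the log2(FPKM + 1) scale, and was the only gene of these 5 past 2-fold of FPKM + 1. ABCB8, ABCB9 and ABCB10 lay between 1 and 3.58 FPKM, and ABCB10 has 3 pseudogenes in the gene table that may share its reads. The list of haem and iron-sulfur genes had 0 of 10 higher and 1 lower in A549, and 1 higher and 1 lower in HCC827, both against BEAS-2B.

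TAP1 and TAP2, which load peptides for antigen presentation and belong to the same subfamily under other symbols, were outside the rule. TAP1 was at 10.2 FPKM in BEAS-2B against 4.07 FPKM for A549 and 1.65 FPKM for HCC827, with differences of -1.15 and -2.08 from BEAS-2B, and TAP2 was at 11.3, 4.67 and 18.3 FPKM. CFTR, the chloride channel of the airway that is ABCC7 by its other name, was at the floor in all 3 lines.

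In subfamily D, whose products import fatty acyl chains into the peroxisome or handle cobalamin in the lysosome, 3 of 4 genes were above the floor. ABCD3, an importer of branched-chain substrates, was at 12.8, 12.7 and 17.7 FPKM and ABCD4, which handles cobalamin, at 4.73, 3.76 and 5.20 FPKM, neither past 2-fold in any pair. Of 9 peroxisome partner genes, 0 were higher and 1 was lower in A549 and 0 were higher and 2 were lower in HCC827 than in BEAS-2B.

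The 4 soluble proteins of subfamilies E and F had similar levels in the 3 lines, with sums of 73.2, 80.2 and 74.6 FPKM in BEAS-2B, A549 and HCC827 and none past 2-fold in any pair. ABCE1, which splits ribosomes for recycling, was at 22.6 FPKM in BEAS-2B, with 33.1 FPKM for A549 and 25.4 FPKM for HCC827, and was the highest ABC mRNA of BEAS-2B. ABCF2 was at 19.8, 23.8 and 20.3 FPKM. Both have 2 pseudogenes in the gene table, with which reads may be shared. The regulatory subunit ABCC9 (SUR2) of the ATP-sensitive potassium channel was at 5.23 FPKM in HCC827 and at the floor in the other lines, a difference of 1.64. The pore subunit gene KCNJ8, its partner in that channel, was at 5.48 FPKM in HCC827, 1.06 FPKM in A549 and the floor in BEAS-2B, while the other regulatory subunit, ABCC8, was at the floor in all lines.

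The circRNAs of the ABC transporter genes were, like all circRNAs, far fewer above 0 in HCC827 than in the other lines. Above 0 were 160 of the 401 for BEAS-2B, 177 for A549 and 11 for HCC827. These are 39.9%, 44.1% and 2.74%, against 46.2%, 47.5% and 5.34% of all circRNAs. Some values above 0 were very small, and above 1 TPM the shares were 27.7%, 32.2% and 2.24%, against 35.6%, 35.9% and 4.96%. Above 5 TPM were 57, 88 and 9, or 14.2%, 21.9% and 2.24%, against 23.4%, 22.7% and 4.65% of all circRNAs. Their summed level was 1856 (BEAS-2B), 3660 (A549) and 1016 TPM (HCC827), so that A549 was the highest, as it was after median-of-ratios scaling, at 2530, 5502 and 491. In at least 1 line, 103 of the 401 were above 5 TPM, against 27377 of all 92509 circRNAs. In every line, 3 of the 401 were above 5 TPM, against 1988 of all 92509. Among the 3 were hsa_circ_0044600 of ABCC3 and hsa_circ_0082934 of ABCF2. The most circRNAs were listed for ABCC1, with 94, ABCC2, with 55, and ABCC4, with 50. Their positions are given on hg19 as the table has them, which does not say whether starts count from 0 or 1.

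circRNAs above 5 TPM in at least 1 line of a pair were compared by the ratio of TPM + 1, and a difference counted from 5-fold. In A549 against BEAS-2B, 30 of 98 were higher, which is 30.6% against 7.13% of all 25512 circRNAs compared, and 2 were lower, which is 2.04% against 6.64%. The median log2 ratio was 0.79 for the ABC circRNAs and -0.17 for all circRNAs. Most of the 30 came from 3 related genes, with 11 of 12 circRNAs of ABCC3, 10 of 11 of ABCC2 and 5 of 17 of ABCC1, together 26 of 40 (65%). The circRNAs of all other hosts had 4 of 58 higher (6.9%), 1 each from ABCB6, ABCC4, ABCC8 and ABCG2. The 2 lower ones were hsa_circ_0087815 of ABCA1 (6.0 TPM in BEAS-2B) and hsa_circ_0068297 of ABCF3 (7.09 TPM in BEAS-2B), both listed at 0 in A549 and named after their values were seen. circRNAs of a gene share its transcript and are not independent of each other. The 3 hosts were grouped after their values were seen. Many of their circRNAs passed the 5 TPM minimum only through A549, where they were high. Above 5 TPM in BEAS-2B were 0 circRNAs of ABCC2 and 3 of ABCC3, against 11 of each in A549. The shares for these hosts thus partly follow from the filter.

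In HCC827 against BEAS-2B, 8 of 63 circRNAs were higher, which is 12.7% against 11.1% of all 23736 compared, and 54 were lower, which is 85.7% against 81.9%. In HCC827 against A549, 6 of 93 were higher, which is 6.45% against 11.8% of all 23091 compared, and 84 were lower, which is 90.3% against 81.4%. Every one of the 54 and of the 84 was listed at 0 in HCC827. Of all circRNAs compared in these pairs, 81.6% and 81.1% were at 0 in that library. Of 14 ABC circRNAs above 20 TPM in A549 as well as in BEAS-2B, 13 (92.9%) were at 0 in HCC827, against 82.8% of 6286 such circRNAs of all genes.

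The ABCC3 circRNAs summed to 51.3 TPM in BEAS-2B against 870 TPM for A549 and 279 TPM for HCC827, and the A549 sum was the highest of any ABC gene in any line. Its hsa_circ_0044599 (chr17:48733192-48733369, plus strand) was at 22.4 TPM in BEAS-2B against 427 TPM for A549 and 0 for HCC827, and held 49.1% of the ABCC3 sum in A549. hsa_circ_0044600, which has the same start and ends at 48735857, was at 5.52, 89.0 and 136 TPM, and was thus above 0 in all lines. hsa_circ_0044618 (chr17:48746712-48755580) showed the reverse pattern, at 143 TPM in HCC827 and listed at 0 in both other lines. In A549 the ABCC3 circRNAs hsa_circ_0044613 and hsa_circ_0044621 reached 59.9 and 76.9 TPM, against 3.46 and 3.01 TPM in BEAS-2B and 0 in HCC827. The ABCC3 circRNAs of HCC827 were 2 in number, and the mRNA was at a similar level in both cancer lines.

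The ABCC2 circRNAs were confined to A549 at levels above 5 TPM, with sums of 4.60 TPM in BEAS-2B against 412 TPM for A549 and 0 for HCC827. The highest was hsa_circ_0019429 (chr10:101542462-101572901, plus strand), at 0.294 TPM in BEAS-2B against 85.1 TPM for A549 and 0 for HCC827. hsa_circ_0019480 and hsa_circ_0019435 were at 79.9 and 68.9 TPM in A549, at 0.366 and 0.362 TPM in BEAS-2B and at 0 in HCC827. HCC827 had ABCC2 mRNA at 16.4 FPKM and all 55 listed ABCC2 circRNAs at 0. ABCC1 circRNAs summed to 131 TPM in BEAS-2B, with 505 TPM for A549 and 6.49 TPM for HCC827, with hsa_circ_0038149 (chr16:16230334-16232415, plus strand) the highest, at 12, 98.8 and 0 TPM. Among the ABCC1 circRNAs above 20 TPM in a line, 14 of 45 pairs overlapped, as did 12 of 21 for ABCC2 and 22 of 45 for ABCC3, so several of these loops share genome sequence.

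**Figure D3:**
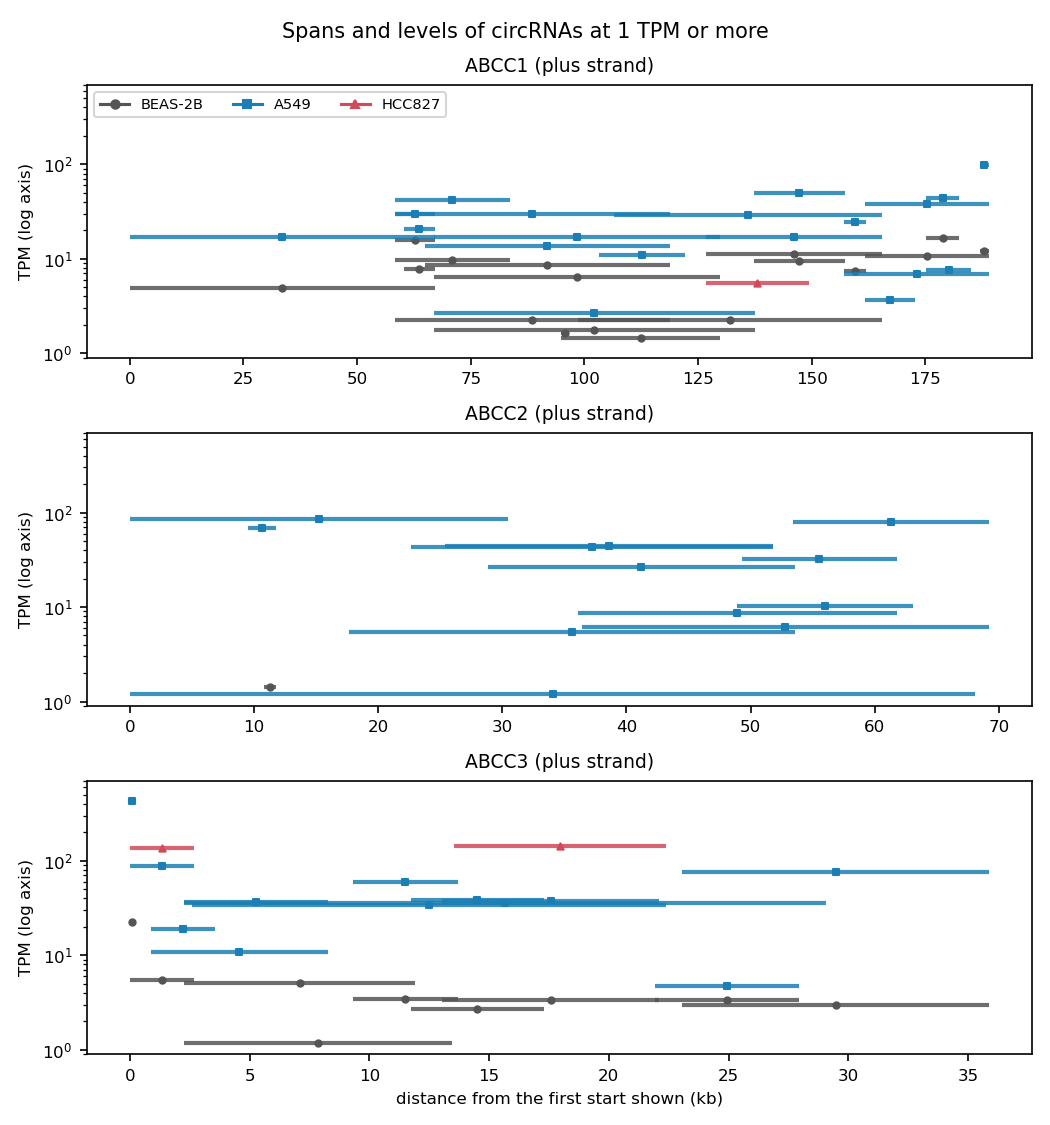
Spans of the circRNAs of ABCC1, ABCC2 and ABCC3 at 1 TPM or more in a line, with the distance in kb from the first start shown on the horizontal axis and the level in TPM (log axis) on the vertical one, 1 bar per circRNA and cell line with a marker at its middle. The highest bars of each gene are those of A549, the highest of all is hsa_circ_0044599 of ABCC3 at 427 TPM, and HCC827 has no ABCC2 bar and 2 ABCC3 bars.

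The single circRNA listed for ABCG2, hsa_circ_0070407 (chr4:89018604-89042944, minus strand), was at 2.10 TPM in BEAS-2B against 70.6 TPM for A549 and 0 for HCC827, and A549 was also the line with ABCG2 mRNA above the floor. For ABCB6, hsa_circ_0058345 was at 4.42 TPM in BEAS-2B against 27.3 TPM for A549 and 0 for HCC827. ABCA5 went the other way, with hsa_circ_0045518 at 52.8 TPM in BEAS-2B against 16.4 TPM for A549 and 0 for HCC827. The summed circRNAs of ABCC8 were at 18.4 TPM in A549 and 0 in the other lines, while the ABCC8 mRNA was at the floor in all of them.

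In HCC827 the ABC circRNAs came from 6 hosts. ABCC4 had 3, hsa_circ_0030603, at 113 TPM in HCC827 and 0 in the other lines, hsa_circ_0030579, at 1.80, 0.426 and 97.9 TPM, and hsa_circ_0030605, at 3.12, 10.3 and 66.6 TPM. The summed level of the ABCC4 circRNAs was thus highest in HCC827, at 278 TPM against 75.6 and 128 TPM, while the ABCC4 mRNA was lowest in that line. This order rests on the TPM as deposited, since after median-of-ratios scaling of the circRNA columns, an alternative applied to these sums after the data were seen, the sum was highest in A549, at 193 against 103 for BEAS-2B and 134 for HCC827. ABCF3 had hsa_circ_0068299 at 30.7 TPM in HCC827 only. ABCF2 kept hsa_circ_0082934, at 13.7, 17.4 and 27.8 TPM.

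The highest circRNAs of ABCE1 and ABCF2, whose mRNA differed by less than 2-fold in every pair, had similar levels in BEAS-2B and A549 and were at 0 in HCC827. hsa_circ_0082936 of ABCF2 was at 299 and 308 TPM, hsa_circ_0082937 at 201 and 239 TPM and hsa_circ_0082935 at 113 and 144 TPM in BEAS-2B and A549. hsa_circ_0071061 of ABCE1 was at 186 and 213 TPM, and all 4 of these were listed at 0 in HCC827, where both mRNAs were at 20.3 FPKM or more. Likewise hsa_circ_0006524 of ABCD3 was at 58.6 and 61.0 TPM, hsa_circ_0032551 of ABCD4 at 68.6 and 50.4 TPM and hsa_circ_0089620 of ABCA2 at 37.8 and 56.3 TPM in BEAS-2B and A549, and each was at 0 in HCC827. hsa_circ_0068260 of ABCC5, at 32.8 and 11.6 TPM, and hsa_circ_0079004 of ABCF1, at 29.8 and 20.5 TPM, were the highest of their hosts and were at 0 in HCC827 too. Both listed ABCF1 circRNAs are placed on the alternate haplotype 6_ssto_hap7, and the other one was at 0 in all lines.

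Across the 34 host genes, the summed circRNA level followed the level of the host mRNA in BEAS-2B and A549. Spearman's rho over the 34 hosts was 0.87 (BEAS-2B), 0.92 (A549) and 0.54 (HCC827), against 0.78, 0.77 and 0.42 over all 10690 host genes with an mRNA value. These are descriptions, since the hosts of a line share its library and genes are not independent replicates. Hosts with at least 1 circRNA above 0 numbered 28 for BEAS-2B, 30 for A549 and 6 for HCC827. Every host with mRNA above the floor had a circRNA above 0 in BEAS-2B and in A549, while 16 of 22 such hosts in HCC827 (72.7%) had none. Any value above 0 counted here, however small, such as the ABCA9 sum of 0.0675 TPM in BEAS-2B. Over all host genes, 0.61% of 8362 had none in BEAS-2B, 0.478% of 8370 in A549 and 65.3% of 8259 in HCC827, so the ABC hosts were near the background in each line. The small share of all circRNAs above 0 in the HCC827 library moves with this count, and its part in it was not tested.

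The differences between A549 and BEAS-2B followed each other as well. Over the 25 hosts with over 5 TPM in either line, 21 (84%) had a summed circRNA difference in the same direction as the mRNA difference, against 78.8% of 8674 such hosts of all genes, and Spearman's rho of both differences was 0.85 against 0.75. All 8 hosts whose mRNA differed 2-fold had the same direction in circRNA and mRNA, as did 93.6% of 2315 over all genes, so both shares were near those of all hosts. For ABCC1 the summed circRNAs were 3.85 times and the mRNA 3.61 times higher in A549. For ABCC3 the ratios were 17.0 and 29.7, for ABCB6 3.45 and 5.18, for ABCA5 0.362 and 0.241, and for ABCC10 0.688 and 0.291. Whether reads of a circRNA junction or of a linear mRNA were assigned to the right molecule could not be checked from these values.

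**Figure D4:**
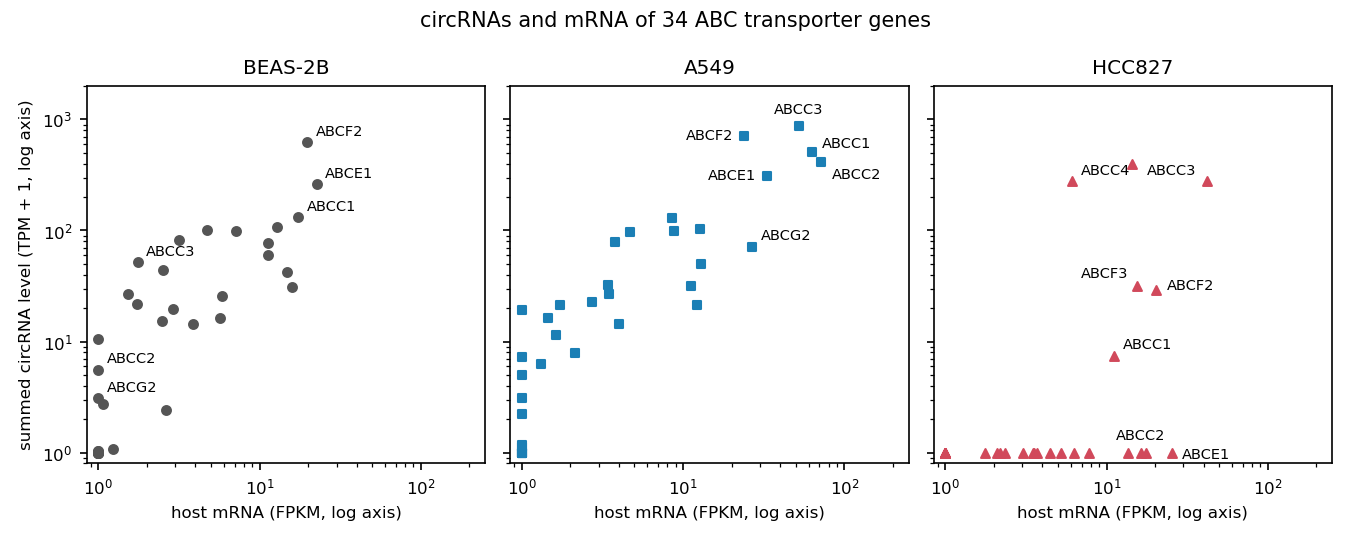
Summed circRNA level (TPM + 1, log axis) against host mRNA level (FPKM, log axis) for the 34 ABC transporter genes with listed circRNAs, 1 panel per cell line and 1 point per gene. In BEAS-2B and A549 the points rise together, ABCC1, ABCC2 and ABCC3 stand at the upper right in A549, and in HCC827 28 of 34 genes lie at a circRNA level of 0 across the range of mRNA levels.

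Target predictions for 9 miRNAs, deposited as lists of genes, were searched for members, with the mature sequences shown because a target site pairs with the seed, bases 2 to 8, given in capitals. The miR-889-3p list named 16 members (35.6%, against 22.6% of all genes), the miR-942 list 13 (28.9% against 18.4%), the miR-1299 list 13 (28.9% against 26%), the miR-1252-5p list 13 (28.9% against 26.9%) and the miR-767-5p list 12 (26.7% against 17.2%). The lists of miR-140-3p, miR-331-3p, miR-382-5p and miR-382-3p named 0 members. These lists are shorter and name 2.4%, 1.17%, 1.05% and 1.29% of all genes in that order. With shares this small, 0 members is near the background and sets the members apart in no way.
hsa-miR-889-3p: uUAAUAUCggacaaccauugu
hsa-miR-1299: uUCUGGAAuucugugugaggga
hsa-miR-1252-5p: aGAAGGAAauugaauucauuua
hsa-miR-767-5p: uGCACCAUgguugucugagcaug
hsa-miR-942-5p: uCUUCUCUguuuuggccaugug
The 5 seeds differ from each other. The name of the miR-942 list leaves the arm incomplete, and the 5p arm shown is the one that the study names. ABCA5 was named in all 5 of the long lists, and how many of all genes were named in all 5 was not counted. Of the efflux pumps higher in A549, ABCC2, ABCC1 and ABCG2 are among the 16 members of the miR-889-3p list. ABCG2 is also in the miR-1252-5p and miR-767-5p lists, and ABCC3 is in none. A predicted target is a match of sequence, and no miRNA level was analysed here.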

How the data were processed

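RNA-Seq data of BEAS-2B, A549 and HCC827 were analysed, 1 library each. The mRNA values were deposited by the authors as FPKM. For these the methods name PEAT, STAR, Cufflinks, GENCODE and the mouse build mm10, while the submitters' processing notes name the build hg19 and the tools kallisto, sleuth and FastQC 0.11.7 with no step assigned, and which build was used for the mRNA values is not known. The circRNA values were deposited by the authors as TPM, with positions taken as hg19 from those notes, and the program that made them is not given in the sources used here. RNA extraction is given as RNeasy in the methods and as Trizol in the sample descriptions. Fold changes in the deposited tables are HCC827 to BEAS-2B ratios by the authors and were not used.

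Of 20635 mRNA rows, 117 with a repeated name and 28 with a name turned into a number, 141 rows together, were dropped, and 20494 genes remained. Genes above the floor of 1 FPKM in at least 1 line of a pair were compared as log2(FPKM + 1) and counted from a 2-fold difference. circRNAs above 5 TPM in at least 1 line of a pair were compared as TPM + 1 and counted from a 5-fold difference. No test was run and no interval is given, since each line has 1 library and the depth is unknown. The members, gene lists and motifs were chosen with earlier results of these data known. Values are given for members at a 2-fold difference in a pair or at 20 FPKM or more, and for partner genes at a 4-fold difference, with some others added by role. A few members and partner genes are counted but not reported here by name. circRNAs named were those above 5 TPM in every line, those highest for their host if above 20 TPM, and those 5-fold different if above 50 TPM. Promoter and miRNA sequences are from RefSeq on GRCh38.p14. Alternatives were no pseudocount, a pseudocount of 5, other level minimums and folds, and median-of-ratios scaling. Python 3.11.15, pandas 2.3.3, numpy 2.4.6 and scipy 1.17.1 were used.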

Additional observations from a re-analysis of the deposited data

How the results depend on the processing

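There was no replicate, and leaving out a library was not possible with 1 per line. No paired analysis was possible because each line has 1 library and the result comes from no test. The median in HCC827 against A549 went from 0.03 to -0.04 with a minimum of 5 FPKM, and no value of a single gene at 2-fold changed sign. Of the counts and medians over all members, 65 stayed near their value and 28 moved, and of the values of single genes 103 stayed and 14 moved.

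For mRNA in A549 against BEAS-2B, a pseudocount of 5 FPKM left 1 gene lower, a 4-fold difference gave 3 higher and 0 lower, and the median became 0.25 with a minimum of 5 FPKM and 0.22 after median-of-ratios scaling. In HCC827 against BEAS-2B, a pseudocount of 5 gave 3 higher and 1 lower, a 4-fold difference also gave 3 higher and 1 lower, and the median became 0 with no filter on low values and 0.36 after scaling. Scaling moved the median of all genes from -0.16 to 0.03 in A549 and from -0.14 to 0.04 in HCC827, so the members' shifts are of that size. In HCC827 against A549, no pseudocount gave 6 higher and 5 lower, with ABCA1 (1.18), ABCB6 (-1.03) and ABCA5 (-1.45) among those gained, and a pseudocount of 5 or a 4-fold difference gave 1 higher. Without a pseudocount, ABCA1 (1.17) and ABCC6 (-1.40) also passed 2-fold in A549 against BEAS-2B, as did ABCC10 (-1.27) in HCC827 against BEAS-2B. With the pseudocount of 5, single genes that fell under 2-fold included ABCC10 (-0.68) in A549 against BEAS-2B, ABCA1 (0.97), ABCB6 (0.60) and ABCC9 (0.77) in HCC827 against BEAS-2B, and ABCC6 (0.51) and ABCC9 (0.77) in HCC827 against A549.

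For circRNAs in A549 against BEAS-2B, 1 was higher and 0 lower when 5 TPM had to be reached in each line. With TPM + 5, 19 were higher and 0 lower, and above 10 TPM 26 were higher and 0 lower. At a 2-fold difference, 45 were higher and 11 lower. Shares over all circRNAs, or over all genes for mRNA, are not given at these alternative settings. The counts there are thus not set against a background. In HCC827 against BEAS-2B, 2 were higher and 0 lower above 5 TPM in each line, 32 were lower above 10 TPM and 15 were lower with TPM + 5. In HCC827 against A549, 1 was higher and 0 lower above 5 TPM in each line, and 41 were lower with TPM + 5. The minimum of 5 TPM in each line left 3 circRNAs and removed every one listed at 0 in HCC827. All circRNAs counted lower in both pairs with HCC827 were listed at 0 there, so this minimum could not count them. Its change from mostly lower to higher only was therefore fixed in advance and says nothing about the balance.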
